A study of Mus musculus with 8 samples.

Results

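The genes described here are 33 mouse genes of DNA repair and of the DNA damage checkpoint, chosen by name for homologous recombination, the Fanconi pathway, mismatch repair and checkpoint signalling. Every probe set annotated to a member gene alone was taken, and the probe set with the highest mean signal over all arrays stood for its gene in the summaries. A named probe set was at hand for 31 of the 33 genes, 71 probe sets in all of the 45101 on the array, and Rbbp8 and Xrcc2 were not analysed here. Of the 31 genes, 30 had a summary probe set bright enough to be tested, and Bard1 did not.

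CD8+ T cells were purified from the spleens of C57BL/6 wild-type mice and of Elf4-/- mice, which lack ELF4, a transcription factor of the ETS family. The labels give C57BL/6 as the strain of the wild-type samples alone. RNA was taken from cells left without stimulation, called naive here, and from cells kept for 3.5 days on plates coated with antibody to CD3, with antibody to CD28 and a T cell growth supplement in the medium, called activated here. The 4 groups (wild type naive, Elf4-/- naive, wild type activated, Elf4-/- activated) had 2 Affymetrix arrays each, 8 in all. Nothing in the labels ties replicates to separate animals or cultures, so each p-value reflects variation between arrays that may be technical. The descriptions of both wild-type naive samples name the same array file, while their columns in the table differ. Values are linear probe set intensities scaled by the authors to the same mean on every array, and values of different probe sets were not compared in level.

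Homologous recombination repairs DNA breaks and collapsed replication forks by copying an intact sister chromatid, so it works in S and G2 phase. The Fanconi pathway removes crosslinks between the strands, mismatch repair corrects replication errors, and the ATR and ATM kinases signal to CHEK1 and CHEK2 to hold the cell cycle while DNA is repaired. Naive T cells are out of cycle, and T cells stimulated through CD3 and CD28 divide rapidly. Many genes of these pathways are E2F targets in other cells, switched on at entry to S phase.

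The arrays separated by state. Over the tested probe sets, arrays of different states correlated at 0.799 to 0.831, replicate arrays at 0.940 to 0.965, and arrays of the same state but different genotype at 0.936 to 0.959. The knocked-out gene's probe set did not check the genotype labels, since Elf4 read 116 and 199 in wild-type naive cells against 165 and 192 in Elf4-/- naive cells, and 83.6 and 134 against 76.2 and 80.6 after activation. Whether its probes lie in the deleted part was not analysed here. CD8 T cell markers were bright on every array, with a summed intensity over 11 probe sets of 111400 to 139700 in naive and 38180 to 46540 in activated cells. RNA integrity, read from the ratio of the 3' to the 5' Actb control probe sets, differed with state: the ratio was 1.96 to 2.50 in naive and 5.90 to 11.1 in activated cells. Xist read 60.3 to 172 in naive and 7703 to 10010 in activated cells, and the Y-linked Eif2s3y read 2537 to 5146 and 2.93 to 44.0. State, the sex of the donor animals that these 2 genes mark, RNA integrity and the array series named in the labels therefore cannot be told apart in any activated against naive comparison. In these bulk samples, fewer cells of a type and less RNA per cell cannot be told apart.

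Promoter sequences from RefSeq (GRCm38.p6), running from 250 bases before to 50 bases from the annotated start on, were matched by symbol for 26 of the 33 members. The table used held no entry for Exo1, Nbn, Rad50, Rad54b, Xrcc2, Fancd2 and Rbbp8. The following sequences are the promoters of the members that rose on activation in both genotypes and held an E2F match (Brca2, Msh6, Topbp1 and Chek2), of Rad51ap1 and Mus81, the tested member that differed between genotypes in naive cells and the only one that fell in both genotypes, and of Atm, which fell in Elf4-/- cells. They were picked with the values known. Capitals mark matches to an E2F motif (TTTGGCGC, TTTCCCGC, TTTGCCGC or TTTCGCGC) or to the ETS motif CCGGAAG, each on either strand. The Brca2 promoter lies at chr5:150522371-150522670 on the plus strand, Msh6 at chr17:87974800-87975099 on the plus strand, Topbp1 at chr9:103305077-103305376 on the plus strand and Chek2 at chr5:110839733-110840032 on the plus strand. Rad51ap1 lies at chr6:126939538-126939837, Mus81 at chr19:5488330-5488629 and Atm at chr9:53536622-53536921, all on the minus strand.
Brca2: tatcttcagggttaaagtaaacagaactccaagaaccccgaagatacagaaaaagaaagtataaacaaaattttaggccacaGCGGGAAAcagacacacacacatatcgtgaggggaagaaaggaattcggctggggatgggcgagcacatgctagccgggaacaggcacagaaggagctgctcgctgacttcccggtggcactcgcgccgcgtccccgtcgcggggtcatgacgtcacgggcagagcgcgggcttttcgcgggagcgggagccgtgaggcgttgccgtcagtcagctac
Msh6: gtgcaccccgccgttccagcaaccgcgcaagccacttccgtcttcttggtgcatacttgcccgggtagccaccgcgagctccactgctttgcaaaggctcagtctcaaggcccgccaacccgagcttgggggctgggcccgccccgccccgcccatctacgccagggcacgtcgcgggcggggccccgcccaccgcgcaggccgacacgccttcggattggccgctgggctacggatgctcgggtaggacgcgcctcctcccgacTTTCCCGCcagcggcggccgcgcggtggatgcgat
Topbp1: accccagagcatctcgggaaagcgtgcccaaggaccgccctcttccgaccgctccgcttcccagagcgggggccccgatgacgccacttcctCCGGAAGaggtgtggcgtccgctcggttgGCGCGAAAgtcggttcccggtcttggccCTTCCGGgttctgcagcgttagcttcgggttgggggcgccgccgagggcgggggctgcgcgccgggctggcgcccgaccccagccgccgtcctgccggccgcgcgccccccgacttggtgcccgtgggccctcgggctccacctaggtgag
Chek2: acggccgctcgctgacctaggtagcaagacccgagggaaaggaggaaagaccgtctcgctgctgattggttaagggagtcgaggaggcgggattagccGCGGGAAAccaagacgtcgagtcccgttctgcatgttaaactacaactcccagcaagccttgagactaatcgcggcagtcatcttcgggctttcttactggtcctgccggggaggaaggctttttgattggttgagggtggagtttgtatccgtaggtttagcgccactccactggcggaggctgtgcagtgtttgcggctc
Rad51ap1: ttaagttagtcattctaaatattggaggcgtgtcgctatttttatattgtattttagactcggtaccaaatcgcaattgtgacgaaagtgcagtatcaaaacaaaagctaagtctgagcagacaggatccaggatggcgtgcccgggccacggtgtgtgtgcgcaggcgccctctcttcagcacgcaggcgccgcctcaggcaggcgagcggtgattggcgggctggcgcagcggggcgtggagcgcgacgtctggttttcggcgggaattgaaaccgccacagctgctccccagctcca
Mus81: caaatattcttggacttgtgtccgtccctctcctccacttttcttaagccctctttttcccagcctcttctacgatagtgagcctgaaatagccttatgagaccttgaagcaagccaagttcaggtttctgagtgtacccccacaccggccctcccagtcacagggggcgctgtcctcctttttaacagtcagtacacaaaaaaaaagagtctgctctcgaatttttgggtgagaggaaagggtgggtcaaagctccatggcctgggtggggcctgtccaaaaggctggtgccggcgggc
Atm: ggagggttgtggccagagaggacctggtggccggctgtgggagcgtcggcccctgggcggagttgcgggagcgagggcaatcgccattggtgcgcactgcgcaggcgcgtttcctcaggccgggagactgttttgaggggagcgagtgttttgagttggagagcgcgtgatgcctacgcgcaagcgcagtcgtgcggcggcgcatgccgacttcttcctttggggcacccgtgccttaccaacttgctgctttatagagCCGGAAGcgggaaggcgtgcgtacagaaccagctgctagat

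An E2F motif in a spelling given above was found in 6 of the 26 promoters (23.1%), those of Bard1, Brca2, Fancg, Msh6, Topbp1 and Chek2. The shares were 4.02% of the 10340 promoters of tested genes and 2.32% of all 27025 promoters of the same length. Members that rose on activation in both genotypes held it in 4 of 15 and the other members in 2 of 11, Bard1 and Fancg. Bard1 was not tested on activation, so the 11 are not all members found not to rise. The E2F match of Brca2 began 168 bases before the annotated start, that of Topbp1 129 and that of Chek2 152 bases before it, and that of Msh6 15 bases after it. The ETS motif CCGGAAG was in 7 of 26 (26.9%), against 17.6% of the promoters of tested genes and 9.12% of all. Its holders were Palb2, Eme1, Brip1, Pms2, Atm, Atr and Topbp1, the last with 2 matches. CCAAT, the NF-Y box of many cell cycle promoters, was in 15 of 26 (57.7%), against 38.5% and 37.9%, and TTTGAA, the CHR element of G2 and M phase genes, in 2 of 26 (7.69%), against 12% and 18.1%. No matches of different motifs overlapped in these 26 windows. Only exact matches to the spellings given were counted, so a promoter without a match may hold another form of the site. These matches describe letters in a window and do not show binding.

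**Figure D1:**
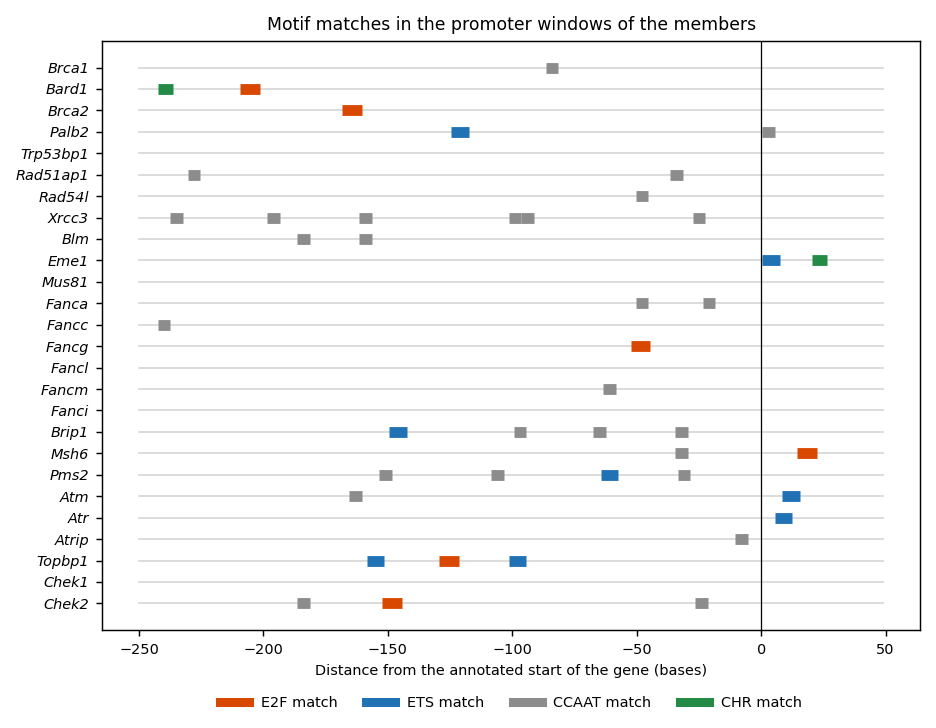
Positions of motif matches in the 26 member promoters, plotted as distance in bases from the annotated start, with a row per gene and a colour per motif. E2F matches appear in 6 promoters, ETS matches in 7, CCAAT in 15 and CHR in 2.

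On activation most of the genes rose together in both genotypes. In wild-type cells 23 of the 30 tested members rose, 1 fell and 6 did not pass (limma, adjusted p under 0.05), so 76.7% were called higher against 21.3% of all 12782 tested genes, and 3.33% lower against 24.1%. In Elf4-/- cells 20 rose, 2 fell and 8 did not pass, 66.7% higher against 21.9% of all genes and 6.67% lower against 26.1%. The median log2 change was 1.27 in wild-type and 1.39 in Elf4-/- cells, while over all tested genes it was -0.12 in both. Both genotypes shared 20 risers and 1 faller. The filter on low values let 4 of the 30 in through activated arrays, since Rad54b, Xrcc3 and Exo1 were under the array median on all 4 naive arrays and Brip1 on 3 of them, so their rises are partly fixed by the filter. Of the 26 other members 19 rose and 1 fell in wild-type cells, and 16 rose and 2 fell in Elf4-/- cells. With the Actb ratio as a covariate, 2 wild-type calls and 0 Elf4-/- calls passed. That loss was not particular to the members. Over all tested probe sets the calls went from 10714 to 484 in wild-type cells and from 11395 to 0 in Elf4-/- cells. The ratio and the state are nearly the same split of the arrays, so this fit had little left to compare. Markers of dividing cells moved with the members' rises, 24 of 25 rising in each genotype, while markers of other spleen cells moved in both directions. Of 10 tested B cell markers 9 fell in wild-type and 8 in Elf4-/- cells, of 10 macrophage and monocyte markers 6 and 9 fell, and of 12 granulocyte markers 0 and 10 fell. Of 6 CD4 and regulatory T cell markers 3 and 4 rose, with 1 falling in Elf4-/- cells. Among these, Il2ra went from 34.1 and 45.2 to 13070 and 12250 in wild-type cells, and Ctla4 from 341 and 507 to 9847 and 11230. Cd4 and Foxp3 were too dim to be tested, so these calls do not show more CD4 or regulatory T cells. Of 6 platelet markers 2 rose in each genotype, with 1 falling in Elf4-/- cells. Germinal centre and plasma cell, NK cell and dendritic cell markers had calls in both directions. Summed B cell markers (10 genes) lay between 22920 and 31020 in naive cells and between 4556 and 6860 in activated cells. Summed macrophage and monocyte markers (13 genes) lay between 5319 and 17320 in naive cells and between 724 and 882 in activated cells. Their part in the members' changes was not tested.

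**Figure D2:**
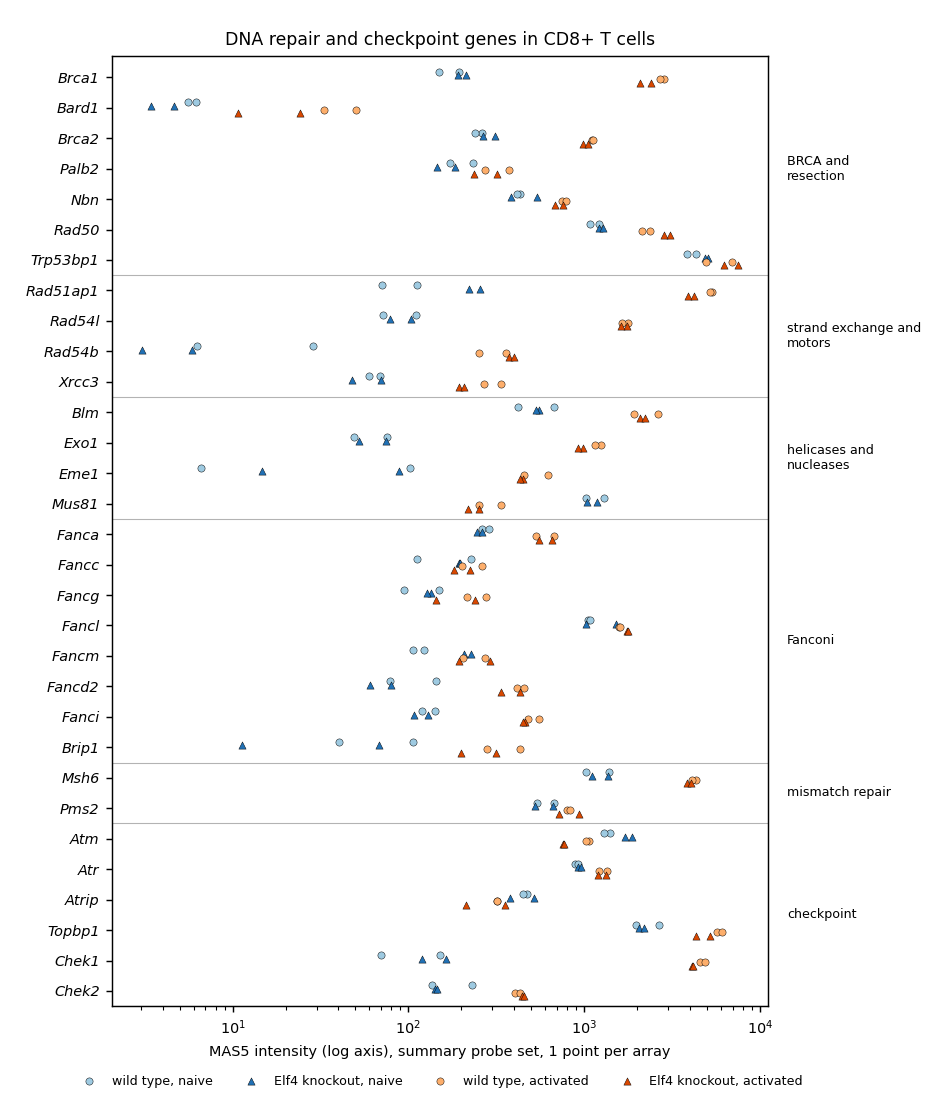
MAS5 intensity (log axis) of each member's summary probe set, with a point for each of the 8 arrays coloured by group and the members ordered by role. For most members the 4 activated arrays lie to the right of the 4 naive arrays, while for Mus81 they lie to the left.

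Among the genes of the BRCA complexes and of end resection, 5 of the 6 tested rose in each genotype. Brca1, the scaffold that directs breaks towards recombination, read 149 and 195 in wild-type naive cells, 192 and 214 in Elf4-/- naive cells, 2847 and 2705 in wild-type activated cells, and 2078 and 2411 in Elf4-/- activated cells. Activated and naive arrays were far apart, and the Elf4-/- activated arrays lay below the wild-type ones. The log2 change was 3.90 (SE 0.20, adjusted p = 1.96e-07) in wild-type and 3.37 (SE 0.20, adjusted p = 4.76e-07) in Elf4-/- cells. Brca2, a mediator of recombination and a partner of PALB2, read 262 and 239, then 310 and 265 in naive cells, and 1110 and 1126, then 981 and 1058 in activated cells, in the same order of genotypes. It rose 4.47-fold in wild-type cells (log2 change 2.09, SE 0.20, adjusted p = 1.41e-05) and 3.54-fold in Elf4-/- cells (log2 change 1.77, SE 0.20, adjusted p = 4.06e-05).

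Palb2, the partner that joins BRCA1 to BRCA2, did not pass in either genotype. Its arrays read 234 and 173 in wild-type and 145 and 183 in Elf4-/- naive cells, and 274 and 374, then 235 and 318 after activation. The activated arrays lay above the naive ones within each genotype, with log2 changes of 0.63 (95% interval -0.05 to 1.31, adjusted p = 0.133) and 0.69 (0.01 to 1.37, adjusted p = 0.0959).

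Rad50 and Nbn encode parts of the MRN complex, which senses and trims broken ends. Rad50 rose from a mean of 1153 ± 91.2 to 2252 ± 181 in wild-type cells and from 1252 ± 43.3 to 2971 ± 159 in Elf4-/- cells (SD, n = 2), log2 changes of 0.96 and 1.24. Nbn rose from 423 ± 12.4 to 773 ± 27.0 and from 462 ± 114 to 721 ± 51.6, log2 changes of 0.84 and 0.64 (limma adjusted p = 0.0105 and 0.0362). Trp53bp1, which protects ends from resection, had small rises of 0.52 and 0.47 by its brightest probe set, from 4076 ± 344 to 5937 ± 1387 and from 4959 ± 148 to 6881 ± 872, with limma adjusted p of 0.0300 and 0.0464.

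For Trp53bp1 the probe sets disagreed. A dimmer probe set of the gene read 267 and 168 in wild-type naive cells and 83.6 and 46.4 after activation, and 340 and 261 in Elf4-/- naive cells and 95.4 and 52.4 after activation. That is a fall in both genotypes, with log2 changes of -1.53 and -1.85. Another pair of its probe sets also fell in wild-type cells, by 2.38 and 1.74 on the log2 scale. Which transcript each probe set reads was not analysed here, so the gene has no settled direction. Bard1, the partner of BRCA1, read 6.18 and 5.58 in wild-type and 3.44 and 4.61 in Elf4-/- naive cells, then 50.4 and 32.9, and 24.1 and 10.8 after activation. All of its values were dim and it was not tested.

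All 4 tested genes of strand exchange factors and motor proteins rose in both genotypes, Rad54b and Xrcc3 being under the array median on every naive array. Rad51ap1, which stimulates strand pairing, read 112 and 70.8 in wild-type and 222 and 256 in Elf4-/- naive cells, and 5332 and 5228, then 3910 and 4204 after activation. The genotypes did not overlap in either state, Elf4-/- cells being higher when naive and lower when activated. Wild-type naive replicate 2 was under the array median, so the wild-type fold is loosely fixed. On activation it rose 57.9-fold in wild-type cells (log2 change 5.65, SE 0.21, adjusted p = 3.49e-08) and 17-fold in Elf4-/- cells (log2 change 4.0, SE 0.21, adjusted p = 2.14e-07).

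Rad54l, a motor that moves along DNA during strand exchange, read 71.8 and 111 in wild-type and 78.3 and 104 in Elf4-/- naive cells, and 1771 and 1639, then 1766 and 1626 after activation. The genotypes overlapped in both states, and the rises were 4.03 and 4.01 on the log2 scale (SE 0.25 for each, adjusted p = 6.79e-07 and 6.53e-07). Rad54b, its relative, read 28.8 and 6.23, then 3.05 and 5.86 in naive cells, and 360 and 251, then 376 and 400 after activation. Naive values were at the dim end of the arrays, so fold changes are large but loosely fixed: the log2 changes on the offset scale were 3.33 and 4.31 (SE 0.47 for each, adjusted p = 0.000235 and 3.29e-05). Xrcc3, which acts in recombination, rose from 64.4 ± 6.45 to 304 ± 47.2 in wild-type and from 58.6 ± 15.5 to 201 ± 8.28 in Elf4-/- cells (SD, n = 2). Its other tested probe set gave 0.52 and 0.49 on the log2 scale and did not pass, so the Xrcc3 call rests on a probe set of the manufacturer's _x_at class, which can cross-hybridize.

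Of the 4 helicase and nuclease genes that process recombination intermediates, 3 rose and 1 fell in each genotype. Exo1, a 5' to 3' exonuclease that works in resection and mismatch repair, read 49.3 and 75.1, then 74.2 and 52.4 in naive cells, and 1245 and 1151, then 992 and 926 after activation. It rose in both genotypes, by 3.97 and 3.63 on the log2 scale (SE 0.28 for each, adjusted p = 1.42e-06 and 2.42e-06). Blm, the helicase that dissolves joined chromatids, read 672 and 419, then 551 and 530 in naive cells, and 1933 and 2641, then 2079 and 2229 after activation. The genotypes overlapped in each state, and Blm rose by 2.06 and 1.96 (SE 0.24 for each, adjusted p = 4.90e-05 and 6.11e-05).

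Eme1 and Mus81 encode the 2 subunits of a nuclease that cuts branched DNA, and they moved in opposite directions. Eme1 read 102 and 6.59, then 14.7 and 88.9 in naive cells, and 622 and 454, then 448 and 429 after activation. Naive replicates were far apart, yet all lay below the activated arrays, and the rises were 3.41 and 3.0 on the log2 scale (SE 0.72 for each, adjusted p = 0.00318 and 0.00624). Mus81 read 1029 and 1291, then 1036 and 1188 in naive cells, and 336 and 251, then 218 and 251 after activation. It fell 3.96-fold in wild-type cells (log2 change -1.93, SE 0.23, adjusted p = 6.29e-05) and 4.75-fold in Elf4-/- cells (log2 change -2.17, SE 0.23, adjusted p = 2.39e-05). The gene's other probe set also fell, with log2 changes of -1.07 and -0.94.

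Of the 8 Fanconi members, 6 rose in wild-type and 4 in Elf4-/- cells, and none fell. Fancd2, a part of the clamp that is ubiquitinated at crosslinks, read 78.6 and 144, then 60.8 and 79.7 in naive cells, and 418 and 453, then 433 and 337 after activation. The groups of different state did not overlap, and the rises were 1.87 and 2.21 on the log2 scale (SE 0.34 for each, adjusted p = 0.00116 and 0.000340). Fanci, the clamp's other part, rose from 131 ± 16.1 to 519 ± 54.6 in wild-type and from 119 ± 15.3 to 454 ± 8.15 in Elf4-/- cells (SD, n = 2), changes of 1.86 and 1.81. Brip1, a helicase bound to BRCA1, read 40.3 and 107, then 11.3 and 67.7 in naive cells, and 281 and 432, then 315 and 200 after activation. It rose by 2.13 and 2.48 on the log2 scale (SE 0.57 for each, adjusted p = 0.0121 and 0.00485).

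The core complex is the ligase that marks the clamp. Fanca, a scaffold of that complex, rose from 277 ± 17.7 to 604 ± 105 and from 254 ± 10.2 to 604 ± 70.8 (SD, n = 2), log2 changes of 1.07 and 1.2. Fancl, its catalytic subunit, read 1048 and 1080, then 1514 and 1031 in naive cells, and 1573 and 1612, then 1761 and 1773 after activation. It passed in wild-type cells, at 0.58 on the log2 scale (SE 0.19, adjusted p = 0.0336), and not in Elf4-/- cells, at 0.49 (SE 0.19, adjusted p = 0.0589), where 1 naive array lay well above the other.

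Fancm, the helicase that brings the core complex to DNA, read 106 and 123 in wild-type and 226 and 208 in Elf4-/- naive cells, and 273 and 205, then 194 and 290 after activation. Wild-type naive arrays were the low ones, and the other groups overlapped. The log2 change was 0.96 in wild-type cells (SE 0.31, adjusted p = 0.0321) and 0.12 in Elf4-/- cells (SE 0.31, adjusted p = 0.788), and the difference between them, -0.84, did not pass (adjusted p = 0.589). Fancc, a core subunit, read 111 and 228, then 194 and 197 in naive cells, and 264 and 201, then 181 and 224 after activation. The groups overlapped throughout, with changes of 0.48 (adjusted p = 0.316) and 0.04 (adjusted p = 0.944). Another probe set of Fancc passed as lower in Elf4-/- cells, from 198 and 195 to 13.4 and 32.1, a log2 change of -2.50. Fancg, also of the core, read 149 and 94.8, then 135 and 127 in naive cells, and 216 and 276, then 240 and 144 after activation. Its changes of 0.94 (adjusted p = 0.0588) and 0.46 (adjusted p = 0.342) did not pass.

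The 2 mismatch repair members differed in call. Msh6, which recognises base mismatches in newly copied DNA, rose from 1207 ± 255 to 4234 ± 171 in wild-type and from 1242 ± 186 to 3950 ± 150 in Elf4-/- cells (SD, n = 2), changes of 1.81 and 1.66 (SE 0.18 for each). Pms2, the nuclease subunit that acts after recognition, read 678 and 540, then 523 and 666 in naive cells, and 802 and 832, then 942 and 723 after activation. Each activated array lay above the naive arrays of its genotype, but the changes of 0.42 (95% interval -0.06 to 0.91, adjusted p = 0.158) and 0.47 (-0.01 to 0.96, adjusted p = 0.111) did not pass. A dimmer Pms2 probe set went the other way without a call. It read 204 and 156 in wild-type naive and 121 and 145 in wild-type activated cells. In Elf4-/- cells it read 164 and 196 when naive and 98.0 and 106 when activated.

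Of the 6 checkpoint members 4 rose in wild-type cells, and in Elf4-/- cells 3 rose and 1 fell. Chek1, the kinase that ATR activates at stalled forks, read 152 and 70.1, then 164 and 120 in naive cells, and 4568 and 4895, then 4109 and 4182 after activation. Wild-type naive replicate 2 was under the array median here too. It rose 42.7-fold in wild-type (log2 change 5.30, SE 0.29, adjusted p = 2.51e-07) and 29.2-fold in Elf4-/- cells (log2 change 4.73, SE 0.29, adjusted p = 4.84e-07). Chek2, the kinase downstream of ATM, rose from 183 ± 66.3 to 420 ± 18.6 and from 144 ± 2.67 to 450 ± 5.58 (SD, n = 2), changes of 1.17 and 1.54. Topbp1, the activator of ATR, rose from 2312 ± 491 to 5898 ± 252 and from 2123 ± 87.5 to 4791 ± 643, changes of 1.36 and 1.16.

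Of the kinases at the top of the pathways, ATR and ATM, neither gene was called higher in both genotypes, though Atr changed by similar amounts in each. Atr read 887 and 923, then 925 and 960 in naive cells, and 1209 and 1351, then 1329 and 1200 after activation. All activated arrays were above all naive arrays, and the change passed in wild-type cells at 0.49 (SE 0.17, adjusted p = 0.0365) and missed in Elf4-/- cells at 0.42 (SE 0.17, adjusted p = 0.0660). A dimmer Atr probe set went from 329 and 278 to 287 and 216 in wild-type cells and from 272 and 187 to 220 and 228 in Elf4-/- cells. Another went from 65.3 and 41.1 to 76.1 and 131 in wild-type cells and from 71 and 77 to 179 and 125 in Elf4-/- cells. Atrip, the partner that brings ATR to single-stranded DNA, read 471 and 448, then 380 and 517 in naive cells, and 320 and 321, then 353 and 213 after activation. Its activated arrays were the lower ones, with changes of -0.50 (adjusted p = 0.189) and -0.66 (adjusted p = 0.0818) that did not pass.

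Atm, the kinase that answers chromosome breaks, read 1404 and 1291 in wild-type and 1711 and 1880 in Elf4-/- naive cells, and 1062 and 1031, then 756 and 767 after activation. The 4 groups did not overlap: Elf4-/- arrays were highest when naive and lowest when activated. It fell 2.36-fold in Elf4-/- cells (log2 change -1.22, SE 0.16, adjusted p = 0.000118) and its change of -0.36 in wild-type cells did not pass (SE 0.16, adjusted p = 0.102). The difference between genotypes, -0.86 (95% interval -1.36 to -0.36), had an unadjusted p of 0.00311 and an adjusted p of 0.230, so it did not pass across all probe sets. The gene's other probe set read 1075 and 803, then 953 and 1071 in naive cells, and 904 and 755, then 697 and 638 after activation, and it also passed as lower in Elf4-/- cells (log2 change -0.59, adjusted p = 0.0386).

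**Figure D3:**
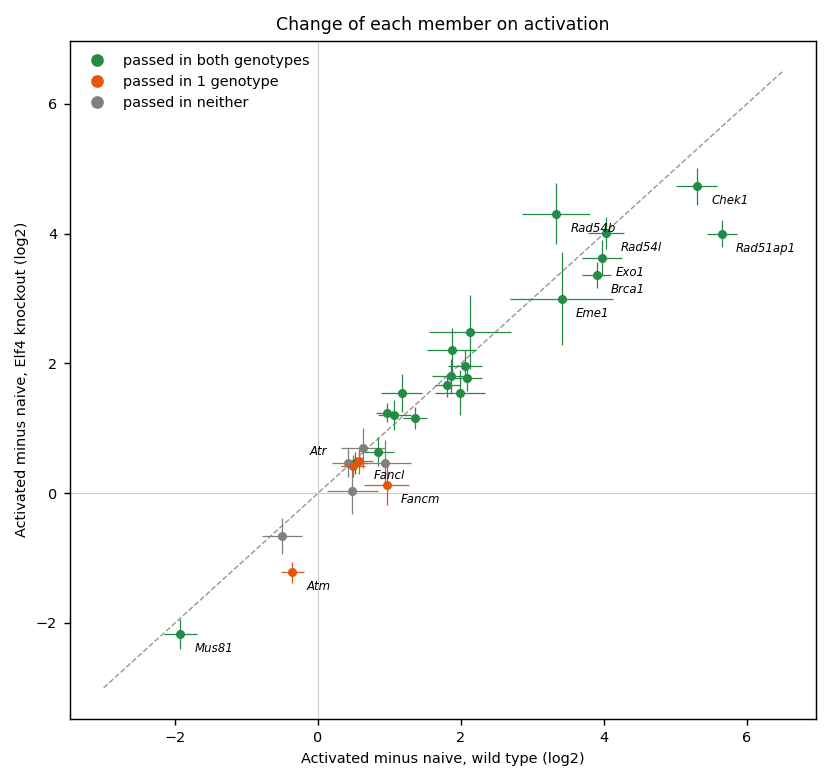
Log2 change on activation in wild-type cells (horizontal axis) against that in Elf4-/- cells (vertical axis) for the 30 tested members, coloured by call, with bars of 1 SE each way and a dashed line of equal change. The points run along the line, Rad51ap1 and Chek1 at the top right and Mus81 at the bottom left, with r = 0.961.

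The 2 genotypes gave similar orders of change, with r = 0.961 over 30 members as a description; the comparisons share no array, but the members share arrays within each. Among the 20 members that rose in both genotypes, the rise was smaller in Elf4-/- cells for 14 (70%), against 46.4% of the 2255 tested genes and 20 of the 24 proliferation markers that rose in both. No test was made of that count. Other probe sets of the members, 30 of 40 of them bright enough to test and spread over 16 genes, gave 10 higher and 4 lower calls in each genotype. Over all 27348 tested probe sets 17.4% were higher and 21.8% lower in wild-type cells, and 18.2% and 23.5% in Elf4-/- cells. Their call was that of the gene's summary probe set for 17 in wild-type and 19 in Elf4-/- cells, and opposite for 3 and 1, all of these Trp53bp1. Without a lower call, a dimmer Brca1 probe set went from 164 and 135 to 63.5 and 92.7 in Elf4-/- cells. A dimmer Fancd2 probe set likewise went from 80.2 and 42.4 to 10.5 and 7.4 there, while further tested probe sets of both genes rose. In Elf4-/- cells a dimmer Fancg probe set went from 163 and 146 to 104 and 95.3. A dimmer Topbp1 probe set went from 60.6 and 43.7 to 35.7 and 40.4 in the same cells, also without a lower call.

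In naive cells 1 of the 30 members differed between genotypes. Rad51ap1 was 2.62-fold higher in Elf4-/- cells (log2 change 1.27, SE 0.21, 95% interval 0.80 to 1.74, adjusted p = 0.0301), with both Elf4-/- arrays, 222 and 256, above both wild-type arrays, 112 and 70.8. Over all tested genes 0.477% were called higher and 0.36% lower. Its 3 other probe sets, which are dimmer, gave 1.16 (adjusted p = 0.406), 1.06 (adjusted p = 0.455) and -0.45 (adjusted p = 0.858). The call was lost without Elf4-/- naive replicate 2, where the log2 change was 1.18 with an adjusted p of 0.142, and it passed in 11 of 22 alternatives with adjusted p from 0.0113 to 0.574.

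At an unadjusted p under 0.05 there were 3 of the 30 members in naive cells, against 14% of all tested genes. These were Rad51ap1, Fancm (log2 change 0.84, adjusted p = 0.319) and Atm (0.41, adjusted p = 0.333). The Elf4-/- arrays lay wholly above the wild-type arrays for 7 members (23.3%) and wholly below for 2 (6.67%), against 20.3% and 19.3% of all tested genes. The median difference was 0.04, and 0.02 over all genes.

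Markers of dividing cells and of other blood cells also differed between the naive groups. Of 25 proliferation markers 5 were higher in Elf4-/- naive cells (Mki67 1.93, Bub1b 1.89, Top2a 1.35, Prc1 1.34 and Rrm2 1.01 on the log2 scale). The Elf4-/- arrays lay wholly above the wild-type arrays for 12 of the 25 and wholly below for 4, all 4 of them Mcm genes. The mean log2 intensity of the list stood at 8.35 and 8.63 in wild-type against 9.06 and 9.22 in Elf4-/- naive cells. Granulocyte genes summed to 826 and 1031 against 5256 and 21390, with 4 of 12 tested higher (S100a8, S100a9, Ngp and Lcn2), and Igha, an antibody heavy chain of plasma cells, read 330 and 149 against 9201 and 16830. Also higher were 2 of 6 tested CD4 and regulatory T cell markers (Ikzf2 and Gpr83) and 1 of 6 NK cell markers (Klra8), and 0 of 10 B cell markers passed. All 6 NK cell markers had higher means on the log2 scale, with a median difference of 1.27. Of them 3 had no overlap of the arrays and 4 had an unadjusted limma p under 0.05. Of those 6 CD4 and regulatory T cell markers, 3 had a higher mean on the log2 scale, and 1 had Elf4-/- arrays wholly below. Cd4 and Foxp3 themselves were too dim to be tested. Ikzf2 was also called higher in activated Elf4-/- cells, at 3362 and 3005 against 1570 and 1657. Of the 10 macrophage and monocyte markers 0 passed, but all 10 had higher means on the log2 scale, with a median difference of 1.02, 8 of them with no overlap of the arrays and 5 at an unadjusted p under 0.05. Their part in the Rad51ap1 difference was not tested.

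In activated cells none of the 30 members passed between genotypes by limma, and 2 had an unadjusted p under 0.05, Atm (log2 change -0.45, adjusted p = 0.335) and Rad50 (0.40, adjusted p = 0.380), against 12.6% of all tested genes. At the adjusted p 0.289% of all tested genes passed. The median difference was -0.18, against -0.01 over all genes, with the Elf4-/- arrays wholly below the wild-type arrays for 11 members (36.7%) and wholly above for 4 (13.3%), against 25.7% and 25.2% of all genes. Proliferation markers lay lower too, with a median of -0.19 and the Elf4-/- arrays wholly below for 15 of 25 and wholly above for 0, and so did 12 of 21 other checkpoint genes and 9 of 11 CD8 T cell markers. Of other recombination genes 10 of 23 lay wholly below and 3 wholly above, and of other Fanconi genes 7 of 13 below and 2 above. Other mismatch repair genes had 4 of 6 below and 0 above, and NK cell markers 5 of 6 below and 1 above. Other lists went the other way. For p53 targets the median was 0.17, with 9 of 18 wholly above and 3 wholly below, and for platelet markers 4 of 6 lay wholly above and 0 below. The part of these lists in the members' lower values was not tested. Rad51ap1 was at -0.38 (95% interval -0.85 to 0.09), Brca1 at -0.31 (-0.76 to 0.14), Exo1 at -0.32 (-0.93 to 0.30) and Chek1 at -0.19 (-0.82 to 0.44). These intervals include both no change and falls larger than the estimates themselves.

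The Actb ratio also differed between the activated groups, at 5.98 and 5.90 in wild-type and 7.44 and 11.1 in Elf4-/- cells, and with that ratio as a covariate 0 members passed as well. The genotype difference in naive cells and that in activated cells had r = -0.081 over the 30 members. The test of whether the genotype effect differed between the states gave 0 members by limma, and 0.0861% of all genes passed it. At an unadjusted p under 0.05 there were 2 members, against 11.6% of all genes. Those 2 were Rad51ap1 (-1.65, 95% interval -2.31 to -0.99, adjusted p = 0.0926) and Atm. Without wild-type naive replicate 1, Rad51ap1 did pass (-1.93, adjusted p = 0.0272).

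**Figure D4:**
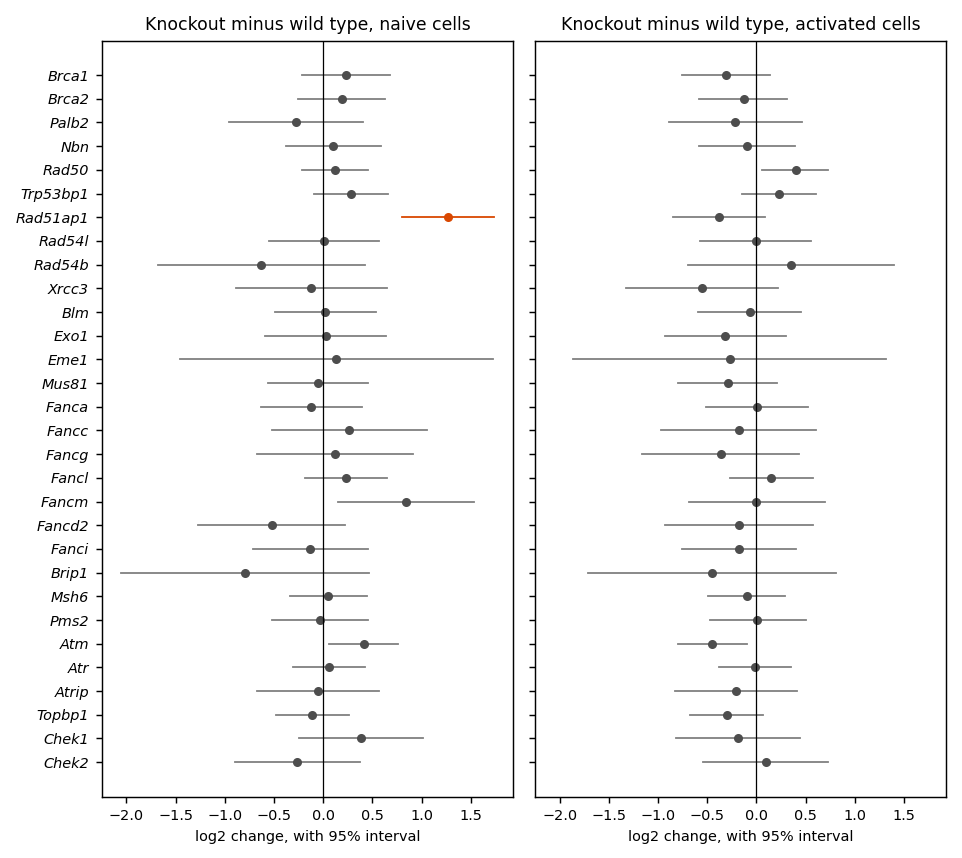
Log2 difference between Elf4-/- and wild type with its 95% interval for each tested member, in naive and in activated cells. Rad51ap1 stands at 1.27 in naive cells, while in activated cells most points lie a little below 0 and no member passed.

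Other genes of the same pathways were counted from lists. Over all tested genes 21.3% rose and 24.1% fell in wild-type cells, and 21.9% rose and 26.1% fell in Elf4-/- cells. Among 23 other tested genes of homologous recombination 10 rose and 3 fell in wild-type cells and 8 rose and 2 fell in Elf4-/- cells. Dna2, a resection nuclease, rose by 4.62 and 3.39 on the log2 scale, Recql4, a replication helicase, by 2.90 and 2.24, and Gen1, a junction resolvase, by 2.61 and 2.73. Shld1, a shieldin subunit that acts with TRP53BP1, fell by 2.54 and 3.02.

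Of 13 other Fanconi genes, 7 rose and 2 fell in wild-type and 8 rose and 2 fell in Elf4-/- cells. Cenps, a partner of FANCM, rose by 3.30 and 1.46, Fancb by 2.45 and 1.81 and the nuclease gene Fan1 by 2.41 and 3.89, while Cenpx, which pairs with CENPS, fell by 1.25 and 1.52 on the log2 scale. Of 6 other mismatch repair genes 2 rose in each genotype. These were Pcna, the replication clamp (1.97 and 1.64), and Lig1, the ligase that seals new strands (1.61 and 1.59), and Pcna is also among the proliferation markers.

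Of 21 other checkpoint genes, 13 rose and 1 fell in wild-type and 10 rose and 3 fell in Elf4-/- cells. The phosphatase genes Cdc25c (4.29 and 3.16) and Cdc25a (2.73 and 2.77), Clspn, the adaptor between ATR and CHEK1 (3.71 and 3.02), and Tipin, a fork protection subunit (2.20 and 2.21), rose in both. Cdc25b, a phosphatase that starts mitosis, was also higher in Elf4-/- naive cells, at 1618 and 2179 against 724 and 783 (log2 change 1.30, adjusted p = 0.0295).

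Other repair routes had calls in both directions, to be read beside the shares of all tested genes given above. In end joining 2 of 13 rose and 2 fell in wild-type cells and 2 rose and 4 fell in Elf4-/- cells, with Prkdc, the DNA-dependent kinase, falling by 0.65 and 1.10 and Tdp2 rising by 0.71 and 0.87 on the log2 scale. Dntt, which adds bases at V(D)J joints, fell by 2.94 in wild-type cells, while its change of -0.47 in Elf4-/- cells did not pass (adjusted p = 0.489), and Aplf rose by 2.14 in wild-type cells with 1.37 in Elf4-/- cells not passing (adjusted p = 0.102).

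In base excision repair 5 of 17 rose and 4 fell in wild-type and 4 rose and 5 fell in Elf4-/- cells. The glycosylase genes Neil3 (2.05 and 1.59) and Ung (1.30 and 1.68) and the endonuclease gene Apex1 (1.04 and 1.40) rose, and Neil1 fell (-1.59 and -1.43). In nucleotide excision repair 4 of 17 rose and 6 fell in each genotype, with Rad23b (2.01 and 2.18) and Gtf2h4 (1.79 and 1.28) higher and Uvssa (-2.27 and -2.34) and the damage sensor Ddb2 (-1.28 and -1.77) lower. In translesion synthesis 3 of 11 rose and 2 fell in wild-type and 3 rose in Elf4-/- cells: the polymerase genes Polh (2.12 and 1.87) and Polk (1.0 and 1.27) and the ligase gene Rad18 (1.31 and 0.84) rose, while Poli fell in wild-type cells (-0.97) with -0.28 in Elf4-/- cells not passing (adjusted p = 0.505).

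Genes that p53 induces moved both ways, 10 of 18 rising and 5 falling in each genotype. Cdkn1a, the cell cycle inhibitor p21, had the largest rise of its list, from a mean of 47.7 to 9955 in wild-type and from 17 to 13780 in Elf4-/- cells (log2 changes 7.32 and 8.75). Perp (3.99 and 4.66) and Sesn2 (3.55 and 3.07) rose and Gadd45a (-3.21 and -2.34) fell. Plk2 was lower in Elf4-/- naive cells, at 24.0 and 28.3 against 120 and 251 (log2 change -2.18, adjusted p = 0.0249).

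**Figure D5:**
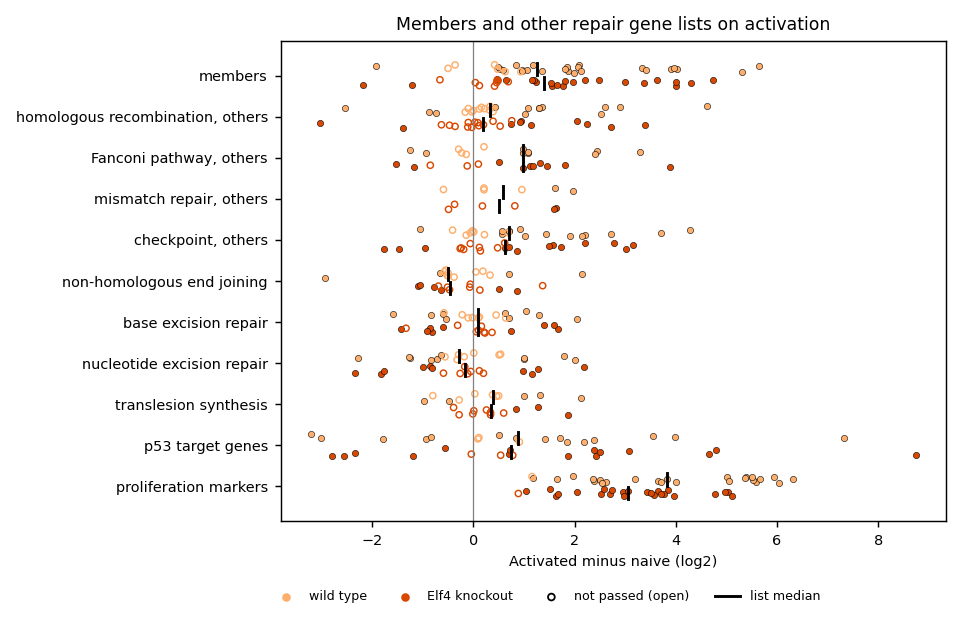
Log2 change on activation of every tested gene of the members and of the pathway lists, in wild-type and in Elf4-/- cells, with open points for genes that did not pass and a bar at each list's median. The members' median is 1.27 in wild-type cells, well under that of the proliferation markers at 3.82. Lower medians are 0.98 for the other Fanconi genes, 0.88 for p53 targets and 0.70 for other checkpoint genes. Further down are 0.58 for other mismatch repair genes, 0.33 for other recombination genes and -0.50 for end joining.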

How the data were processed

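Total RNA of CD8+ T cells was labelled and hybridized to 8 Affymetrix arrays, 2 per group, with groups and replicate numbers taken from the sample titles. Each deposited value is a linear probe set intensity from MAS5, per the submitters' processing notes (version not stated there). The authors had scaled the arrays, since the 2% trimmed mean was 500 on all of them. Array medians were 64.1 to 86.2, and the number of arrays limits the precision.

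Gene names came from the platform's annotation, with symbols updated through Entrez identifiers (34754 of 34958 probe sets with 1 symbol matched, and 932 with several and 9211 with none were not named). Control probe sets (64) were left out. Values were analysed as log2(intensity + 16), so changes of dim probe sets are understated. Testing was limited to the 27348 probe sets that reached the array median on 2 or more arrays, and 12782 genes had their brightest probe set among them. One linear model of 4 group means was fitted to all 8 arrays in limma 3.58.1 (R 4.3.3; lmFit, eBayes with trend, 4 residual and 6.7 prior degrees of freedom). Tests were two-sided, adjusted by Benjamini-Hochberg over all probe sets within a contrast, with a threshold of 0.05. Values after ± are SDs of 2 arrays, intervals are 95%, and each log2 change carries the fit's standard error (SE). The fit was tested on simulated data. Motifs were counted in Python 3.11.15.

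The members, the gene lists and the rule for naming genes were chosen with earlier results of these data known. Values on every array are given for members that passed a genotype contrast, for the 12 with the largest mean activation change among those passing in both genotypes, and for those passing in neither or only 1. Of other genes, up to 4 per list with the largest wild-type activation change among those passing are named, with those passing a genotype contrast. Of 181 list entries for pathways 169 had a named probe set, as did 99 of 113 for cell type markers, and the others were not analysed here. Alternatives changed the offset, scaling, filter, prior, arrays, weights, replicate block, probe sets, threshold and the Actb ratio as a covariate.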

Additional observations from a re-analysis of the deposited data

Results flagged for a closer look

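For 3 of the marker genes beside the naive comparison, the test of the genotype effect between states passed in limma. The effect of the genotype was smaller in activated than in naive cells by 6.67 on the log2 scale for Igha, an antibody heavy chain gene (-6.67, adjusted p = 0.0225). The same difference was -6.06 for S100a8, a granulocyte gene (adjusted p = 0.0483), and -2.30 for Mki67, a gene of dividing cells (adjusted p = 0.0225). In naive cells Igha read 330 and 149 in wild type against 9201 and 16830 in Elf4-/- cells, S100a8 read 123 and 101 against 1354 and 6941, and Mki67 read 174 and 255 against 714 and 1006. After activation Mki67 read 13710 and 14190 in wild type against 10580 and 11000 in Elf4-/- cells. No member of the DNA repair and checkpoint genes met this test.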

How the results depend on the processing

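Alternatives were a different offset, scaling, filter, prior, array set, array weighting, replicate block, probe set choice, threshold or covariate, and leaving out each array. Of the 46 activation calls on members, 44 kept their direction in every alternative, and 34 passed in all of them or all but 1. Members passing in wild-type cells numbered 18 to 24 when an array was left out and 21 to 25 otherwise, except 18 with a log2 change of at least 1 asked for and 2 once the Actb ratio entered the model. In Elf4-/- cells the ranges were 20 to 22 and 18 to 25, and 0 with that covariate. With it all 27348 probe sets gave 484 calls in wild-type and 0 in Elf4-/- cells, and 2 changes reversed, Fancm in wild-type (-0.35, adjusted p = 0.904) and Trp53bp1 in Elf4-/- cells (-0.23, adjusted p = 0.961). The ratio and the state are nearly the same split of the arrays, so this fit has little left to compare.

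The naive genotype call numbered 0, in place of 1, under quantile normalization, without the variance trend, with the 4 naive arrays alone, with array weights, with the replicate block, and once the Actb ratio entered the model. It numbered 0 to 1 when an array was left out, being 0 without Elf4-/- naive replicate 2 or without any activated array, and 1 without each other naive array; the cause was not tested. Rad51ap1 was higher in Elf4-/- naive cells in all 22 alternatives, by 0.97 to 1.55. Between the activated groups 0 members passed under every alternative run. The difference between states numbered 0, and 0 to 1 when an array was left out. Among single members, Fancl, Atr, Fancm, Nbn and Trp53bp1 lost an activation call in several settings, and Xrcc3 lost it without probe sets of the suffixes _x_at and _s_at (0.52, adjusted p = 0.376, and 0.49, adjusted p = 0.395).

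Over all probe sets the median activation change moved from -0.15 to -0.03 under quantile normalization and to 0.03 under centring in wild-type cells, and from -0.16 to -0.04 under both in Elf4-/- cells. Deviations of same-numbered samples correlated at -0.167 in naive and 0.0229 in activated cells, so the numbers were not taken as pairs. The replicate block gave 23, 21, 0, 0 and 0 members for wild-type activation, Elf4-/- activation, naive, activated and difference. A crossed pairing, chosen after seeing the data, gave 24, 23, 1, 0 and 0. Dim naive values limit how closely a fold change is fixed for Rad54b, Xrcc3, Exo1 and Brip1, and for Eme1. The same limit holds in wild-type cells for Rad51ap1, Rad54l and Chek1, and in Elf4-/- cells for Fancd2. With a filter at 6 of 8 arrays, 20 members rose in wild-type and 16 in Elf4-/- cells.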
